A study of Rattus norvegicus with 2 samples.

Results

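Ribosomal protein genes of the rat hypothalamus were examined in tickled animals against animals given no stimulus or a light touch. They were chosen by the gene symbol of the array's annotation. A symbol had to begin with Rpl, Rps, Mrpl or Mrps, followed by a digit or by p and a digit. Symbols with a -ps suffix and the Rps6k kinases were left out. In all 140 of the 14871 genes named on the array met this rule, through 242 of 23535 probes with 1 symbol. By symbol they comprised 70 genes of the cytosolic ribosome (45 of the large subunit and 25 of the small) and 70 of the mitochondrial ribosome (43 and 27). Subunits were assigned throughout by the symbol alone, which need not match the subunit that holds the protein. The place of each protein was not checked. The rule also admitted Rps19bp1, which encodes a nucleolar protein that binds a ribosomal protein and is no part of the ribosome. A value was present on both arrays for 139 members. The exception was Rpl39l1, a paralog of Rpl39, whose only probe was empty on both. A further 6 probes named a cytosolic ribosomal protein gene together with a second gene record and were left out of all gene values. They gave 1.01 to 1.24 against no stimulus and 1.01 to 1.49 against light touch. They are the only probes of Rpl12 and Rpl37a, and additional ones of Rps7, Rps9 and Rps29.

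The ribosome translates messenger RNA into protein. Its small subunit reads the codons and its large subunit joins the amino acids. Cytosolic ribosomal proteins are made in matched amounts, and their mRNAs begin with a terminal oligopyrimidine (TOP) tract, through which translation follows nutrient and growth signals. Mitochondria have ribosomes of their own, which make the subunits of the respiratory chain that mitochondrial DNA encodes. All proteins of that second ribosome are encoded in the nucleus and imported.

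The animals were male Wistar rats, 21 days old and newly weaned at entry, kept singly behind screens, with 4 animals in each of 3 conditions. Tickling mimics the play fighting of young rats and elicits 50 kHz ultrasonic calls, while a light touch generally does not. The stimulus was given on weekdays for 4 weeks, in daily bouts that alternated 15 s without contact and 15 s with it. Hypothalamic RNA was compared on 2 two-colour arrays, with tickled rats in Cy5 on both and either control in Cy3. They are called here the no-stimulus array and the light-touch array, after the control.

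Each comparison therefore had 1 array, without replicate or dye swap, so no test between conditions was possible and no p-value was computed. A dye effect and a difference between the groups cannot be told apart. The labels give 4 animals a condition and 1 replicate an array, and how the animals' RNA was combined is not stated. Values are ratios as deposited. They are read as tickled over control, the likely direction given the dyes, but the numerator is not stated. If it was the control, every ratio must be inverted. The arrays give no expression levels, so the presence of hypothalamic marker transcripts cannot be checked from them. Of the 10 hypothalamic markers, 5 had a ratio above 1 and 5 below against no stimulus, and all 9 measured ones lay above 1 against light touch. The 8 measured markers of neighbouring forebrain all lay above 1 against no stimulus, and 7 of 8 lay below 1 against light touch. Of the pituitary markers the 4 measured all lay above 1 against no stimulus, up to 9.08 for Tshb, and 3 of 4 did against light touch. Choroid plexus markers were 3 above and 3 below 1 against no stimulus and 1 above and 3 below against light touch, with Ttr lowest at 0.08 and 0.39. The 5 oligodendrocyte markers were 4 above 1 against no stimulus and 0 above against light touch, where they ran from 0.86 to 0.907. Whether such differences in tissue content played a part in the ribosomal protein ratios was not tested. In bulk tissue, fewer cells of a type and less RNA per cell cannot be told apart.

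The starts of several of the genes show the TOP tract that sets the cytosolic members apart in sequence. Windows of 40 bases are shown for 5 cytosolic members with such a tract, for the cytosolic member with the highest ratios (Rpl13a), and for 4 of the mitochondrial members that were past 1.2-fold. Each runs from 20 bases before the annotated RefSeq start to 20 after it, on the gene's strand. In the first 5 windows capitals mark the run of C and T that begins at the start. In Mrps10 they mark the letters CCGGAA, the core bound by ETS family factors, which is frequent in promoters of mitochondrial genes.
Rpl19 (large subunit): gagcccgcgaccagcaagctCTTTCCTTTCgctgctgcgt
Rpl35 (large subunit): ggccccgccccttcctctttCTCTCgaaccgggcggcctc
Rpl35a (large subunit): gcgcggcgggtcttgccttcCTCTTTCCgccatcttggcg
Rpl39 (large subunit): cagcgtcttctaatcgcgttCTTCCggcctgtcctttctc
Rps27 (small subunit): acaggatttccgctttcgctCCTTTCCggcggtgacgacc
Rpl13a (large subunit): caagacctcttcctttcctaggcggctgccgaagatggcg
Mrps10 (mitochondrial small subunit): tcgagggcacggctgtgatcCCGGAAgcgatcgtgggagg
Mrpl37 (mitochondrial large subunit): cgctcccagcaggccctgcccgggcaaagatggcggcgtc
Mrpl45 (mitochondrial large subunit): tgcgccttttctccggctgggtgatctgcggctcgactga
Mrpl50 (mitochondrial large subunit): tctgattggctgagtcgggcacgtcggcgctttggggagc
In the GRCr8 assembly these windows are chr10:83519044-83519083 (plus strand) for Rpl19, chr3:43165902-43165941 (minus) for Rpl35, chr11:81235002-81235041 (minus) for Rpl35a and chrX:121195877-121195916 (minus) for Rpl39. Those of Rps27 and Rpl13a are chr2:177964587-177964626 (minus) and chr1:104748894-104748933 (minus). The mitochondrial members lie at chr9:21122434-21122473 (minus) for Mrps10, chr5:127074948-127074987 (minus) for Mrpl37, chr10:82805019-82805058 (plus) for Mrpl45 and chr5:68668068-68668107 (minus) for Mrpl50.

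A promoter sequence was listed for 114 of the 140 members, 58 cytosolic and 56 mitochondrial. A C at the annotated start followed by at least 4 bases that were each C or T was found, on the gene's strand, in 22 cytosolic members (37.9%), 2 mitochondrial ones (3.57%) and 3.11% of all 27457 genes with a promoter. Annotated starts can be off by several bases. A run of at least 7 such bases within 20 bases of the start was found in 50 cytosolic members (86.2%), 19 mitochondrial ones (33.9%) and 32.4% of all genes. Rpl13a is such a case, with its run just upstream of the annotated start. The letters CCGGAA on either strand stood in 53.4% of cytosolic and 53.6% of mitochondrial promoters, against 16.5% of all. On the reverse strand they read TTCCGG and can overlap a pyrimidine run, as in Rpl39. The letters TATAAA on either strand stood in 8.62%, 14.3% and 15.3%. Among the 12238 array genes with a promoter the shares were 2.76% for the tract at the start and 29.2% for the run. They were 22.0% for CCGGAA and 11.6% for TATAAA. The 22 cytosolic members with a tract exactly at the start had a median log2 ratio of 0.00 against no stimulus and 0.01 against light touch. The 35 measured ones without it had -0.01 and 0.01.

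Cytosolic ribosomal protein genes lay close to a ratio of 1 in both comparisons. Their median ratio was 1.0 against no stimulus and 1.01 against light touch, over 69 measured members, where all named genes had 1.01 on both. The members spread by 0.08 log2 units (SD) on each array, and all genes by 0.20 and 0.22. Values ran from 0.88 to 1.19 against no stimulus and from 0.92 to 1.22 against light touch. A ratio 1.2-fold or more from 1 was found for 0 of 69 members against no stimulus, where 12.3% of all genes passed that fold, and for 1 of 69 against light touch, where 13.8% did. Split by direction, 8.38% of all genes were that far above 1 and 3.91% that far below against no stimulus, and 7.61% and 6.14% against light touch. At 1.1-fold the counts were 6 and 10 of 69, beside 32.4% and 34.8% of all genes. Left out of these counts is Rpl12, whose 2 probes also name a second gene. They gave 1.06 and 1.24 against no stimulus and 1.15 and 1.49 against light touch, and counted for Rpl12 they would put it at 1.15 and 1.31, the highest cytosolic value against light touch. The members past 1.2-fold would then be 0 of 71 and 2 of 71. On the no-stimulus array 31 members lay above 1, 35 below and 3 at 1. On the light-touch array 38 lay above, 28 below and 3 at 1, beside 51.8% and 51.3% of all genes above 1, and 45.1% and 46.1% below it, against no stimulus and light touch in turn.

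**Figure D1:**
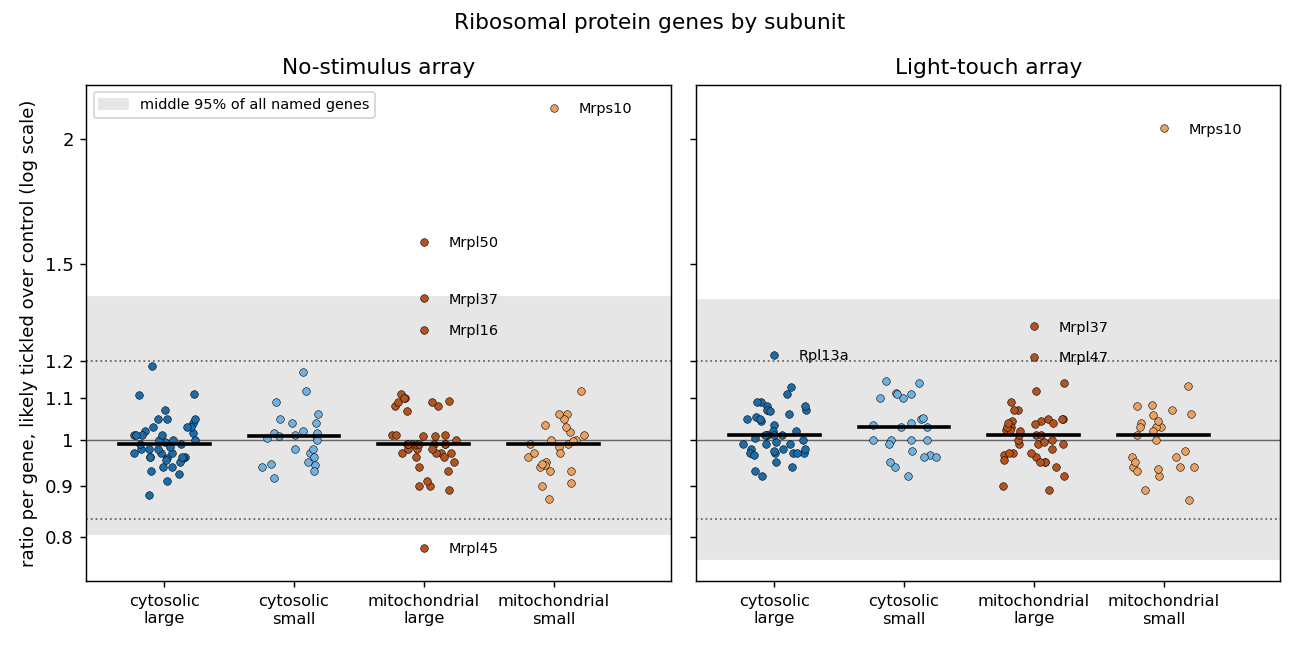
Ratio of each ribosomal protein gene (points, log axis) by subunit on the no-stimulus and the light-touch array, with class medians (bars), the middle 95% of all named genes (grey) and 1.2-fold either way (dotted). Class medians lie between 0.99 and 1.03, and members 1.2-fold or more from 1 are named.

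Mitochondrial ribosomal protein genes had median ratios of 0.99 against no stimulus and 1.01 against light touch over 70 members. They spread by 0.19 log2 units against no stimulus and 0.16 against light touch. The members 1.2-fold or more from 1 numbered 5 of 70 against no stimulus (12.3% of all genes) and 3 of 70 against light touch (13.8%). At 1.1-fold there were 15 and 10 of 70, beside 32.4% and 34.8% of all genes. At 1.5-fold there were 2 and 1, beside 1.98% and 2.49% of all genes. At 2-fold there was 1 on each, Mrps10, beside 0.421% and 0.57%. Among all genes 0.0607% were 2-fold or more up on both arrays. Without Mrps10 the SD of the mitochondrial members was 0.14 and 0.10. On the no-stimulus array 26 lay above 1, 41 below and 3 at 1. On the light-touch array the counts were 37, 30 and 3. The members' shares at 1.2-fold lay below those of all genes. Among genes with 2 or more measured probes this was so on neither array. There the members' share against no stimulus was 10.3% (3 of 29), beside 6.43% of all such genes. Against light touch it was 7.41% (2 of 27), close to the 7.15% of all such genes. The 3 against no stimulus were Mrpl37, Mrpl50 and Mrpl16, whose probes disagreed, as given below. No test of these differences was made.

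**Figure D2:**
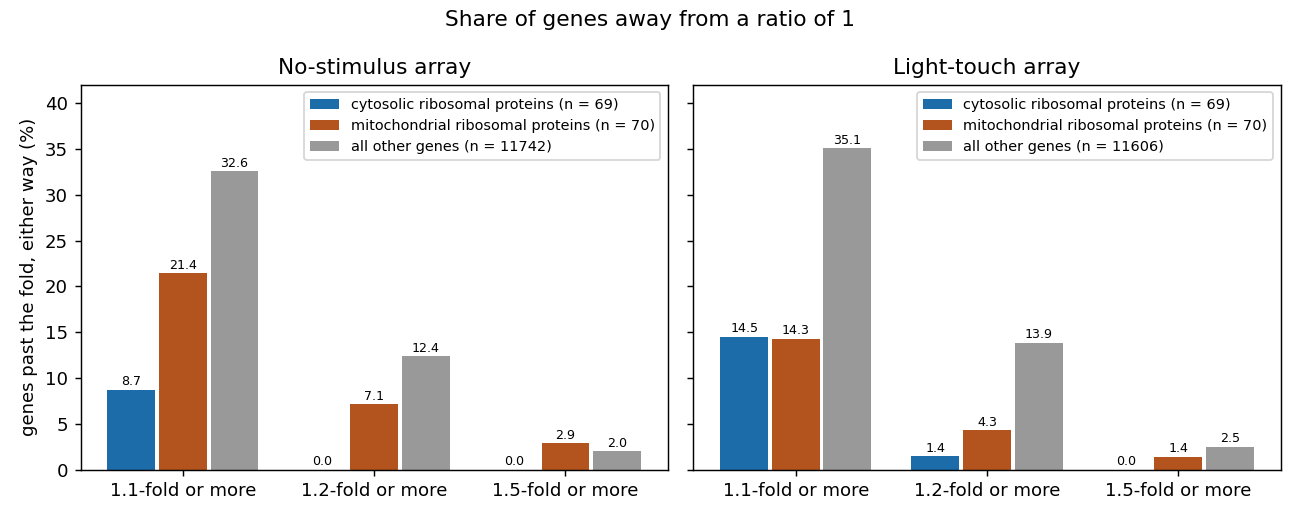
Percentage of cytosolic members, mitochondrial members and all other genes with a ratio 1.1, 1.2 or 1.5-fold or more from 1, either way, on each array. Cytosolic members past 1.2-fold were 0 of 69 and 1 of 69, and mitochondrial ones 5 of 70 and 3 of 70.

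In the cytosolic large subunit, 44 measured members had median ratios of 0.99 against no stimulus and 1.01 against light touch. In what follows genes are called highest or lowest by the mean of both log2 ratios, and paired values give the no-stimulus array and then the light-touch array. Rpl13a, which in human myeloid cells also represses translation of inflammatory mRNAs outside the ribosome, was highest on both, at 1.19 and 1.22. Its RefSeq probe gave 1.05 on both arrays and its other probe 1.34 and 1.41. Next stood Rpl3l, the paralog of Rpl3 typical of striated muscle, at 1.11 and 1.13, and Rpl35, near the peptide exit tunnel, at 1.11 on both. The RefSeq probe of Rpl3l gave 1.16 and 1.03 and its other probe 1.06 and 1.24. Rpl3 itself, which helps shape the catalytic centre, had 0.98 and 1.09. At the low end were Rplp2, an acidic protein of the stalk that recruits elongation factors, at 0.88 and 0.93, Rpl36 at 0.91 and 0.92, and Rpl35a at 0.925 and 0.95. Mutations of RPL35A in humans cause Diamond-Blackfan anaemia. None of the low members passed 1.2-fold on either array. The other stalk proteins, Rplp0 and Rplp1, lay at 1.03 and 0.99 and at 0.983 and 1.07.

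Several large subunit genes were read by many probes, which shows how closely such ratios repeat within an array. The 5 probes of Rpl21, all of 1 accession, gave 0.97 to 1.02 against no stimulus and 0.96 to 1.0 against light touch. The 4 probes of Rpl29 gave 0.99 to 1.08 and 0.98 to 1.03. Those of Rpl19 gave 0.93 to 1.12 and 0.99 to 1.1, and those of Rpl37l1, listed in RefSeq with the older name Rpl37, gave 0.89 to 1.04 and 0.96 to 1.09. Every one of these ranges included 1 on both arrays. In the other paralog pairs, Rpl7l1 had 1.01 and 0.975 beside 1.01 on both for Rpl7, and Rpl36al1 had 1.01 and 1.0 beside 0.96 and 1.08 for Rpl36a. The ratio of Rpl39 was 1.07 on both. Ribosomal protein genes have many processed pseudogenes and near copies, and the probes cannot be taken to separate them.

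In the cytosolic small subunit the 25 members had medians of 1.01 against no stimulus and 1.03 against light touch. The highest were Rps29, a zinc-binding protein of the subunit's head, at 1.17 and 1.11, Rps16, whose tail contacts the tRNA of the peptidyl site, at 1.12 and 1.11, and Rps6 at 1.09 and 1.14. Rps6 carries the phosphorylation sites that S6 kinases modify downstream of mTOR. Each of these 3 values came from 1 probe of a RefSeq accession. A second probe that names Rps29 together with a pseudogene gave 1.01 and 1.05, and with it Rps29 would be at 1.09 and 1.08. The lowest were Rps27 at 0.94 and 0.92, Rps9, a protein of mRNA entry, at 0.93 and 0.95, and Rps19, the gene most often mutated in human Diamond-Blackfan anaemia, at 0.915 and 0.975. A second probe of Rps9, which lists 2 gene records of that symbol, gave 1.04 and 1.09. With it Rps9 would be at 0.983 and 1.02 and not among the 3 lowest. None of these 6 genes passed 1.2-fold on either array. Rps2, also of the mRNA entry site, was read by 4 probes at 0.93 to 1.12 against no stimulus and 1.02 to 1.07 against light touch. Of all cytosolic members, 5 were 1.1-fold or more above 1 on both arrays (Rpl13a, Rpl35, Rpl3l, Rps16 and Rps29) and 0 were that far below 1 on both. With the 6 left-out probes Rps29 would leave this group and Rpl12 enter it. Neither probe of Rpl3l was by itself 1.1-fold up on both arrays, only their median was. Among all genes 9.14% were 1.1-fold up on both and 3.89% down on both.

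Mrps10, a protein of the head of the mitochondrial small subunit, had a ratio of 2.15 against no stimulus and 2.05 against light touch. It ranked 27 from the top among 11881 genes and 34 among 11745. It was the 1 member past 2-fold, and on both arrays its value came from the same single probe of a RefSeq accession. No second probe of the gene was there to check it. That probe lay in the outermost 20% of probe numbers, which held 52 of the 242 member probes. Among probes of other genes, ratios 2-fold or more from 1 made up 1.4% there and 0.254% in the middle 80% on the no-stimulus array, and 1.49% and 0.357% on the light-touch array. In a running window of probe numbers centred on it the median ratio was 1.04 against no stimulus and 1.01 against light touch. With this local median subtracted, the ratio of Mrps10 was 2.07 and 2.03. In that window 7 probes with a value had a ratio of 2 or more against no stimulus, Mrps10 included, and 2 did against light touch.

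The remaining mitochondrial small subunit genes lay between 0.87 and 1.13 on both arrays. Mrps7 was at 1.12 and 1.06 and Mrps17 at 1.05 and 1.08. Both belong to proteins with bacterial counterparts. At the low end were Mrps16, mutated in a human respiratory chain deficiency, at 0.873 and 0.96, Mrps27, an RNA-binding protein of the pentatricopeptide repeat family, at 0.90 and 0.939, and Mrps11 at 0.93 and 0.92. The 2 probes of Mrps16 gave 0.82 and 0.93 against no stimulus, and against light touch only the second probe had a value, 0.96. The 26 members without Mrps10 spread by 0.08 log2 units against no stimulus and 0.10 against light touch. With it the values were 0.23 and 0.22.

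In the mitochondrial large subunit 43 members had medians of 0.99 and 1.01. Mrpl37, a protein found in animal mitochondrial ribosomes and not in bacteria, had 1.39 against no stimulus and 1.3 against light touch. Mrpl50 had 1.58 and 1.0, and Mrpl16, of the bacterial uL16 family, 1.29 and 1.12. In these 3 genes the probes disagreed. The 2 probes of Mrpl37 gave 2.02 and 0.95 against no stimulus and 1.74 and 0.97 against light touch. Those of Mrpl50 gave 2.49 and 1.0 against no stimulus, and only the second had a value against light touch, so its 2 gene values do not rest on the same probes. The 2 measured probes of Mrpl16 gave 1.66 and 1.0 against no stimulus and 1.28 and 0.98 against light touch. In each pair the probe of a RefSeq accession stayed within 1.1-fold of 1. Mrpl47, named after its value was seen, was at 0.93 against no stimulus and 1.21 against light touch. Its RefSeq probe gave 0.88 and 0.93. The 2 other probes of Mrpl47 were close to each other, at 0.93 and 0.94 against no stimulus and 1.21 and 1.24 against light touch.

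The lowest members of the same subunit by the mean of both arrays, Mrpl45, Mrpl2 and Mrpl54, had 1 probe each. Mrpl45, which anchors the ribosome to the inner membrane near the exit tunnel, had 0.78 against no stimulus and 0.90 against light touch, from 1 probe of a RefSeq accession in the middle of the probe numbers. It was the 1 member more than 1.1-fold below 1 on both arrays, beside 3.89% of all genes. Mrpl2, a homologue of a core bacterial protein, had 0.89 and 0.95. Mrpl54 had 0.99 and 0.89.

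**Figure D3:**
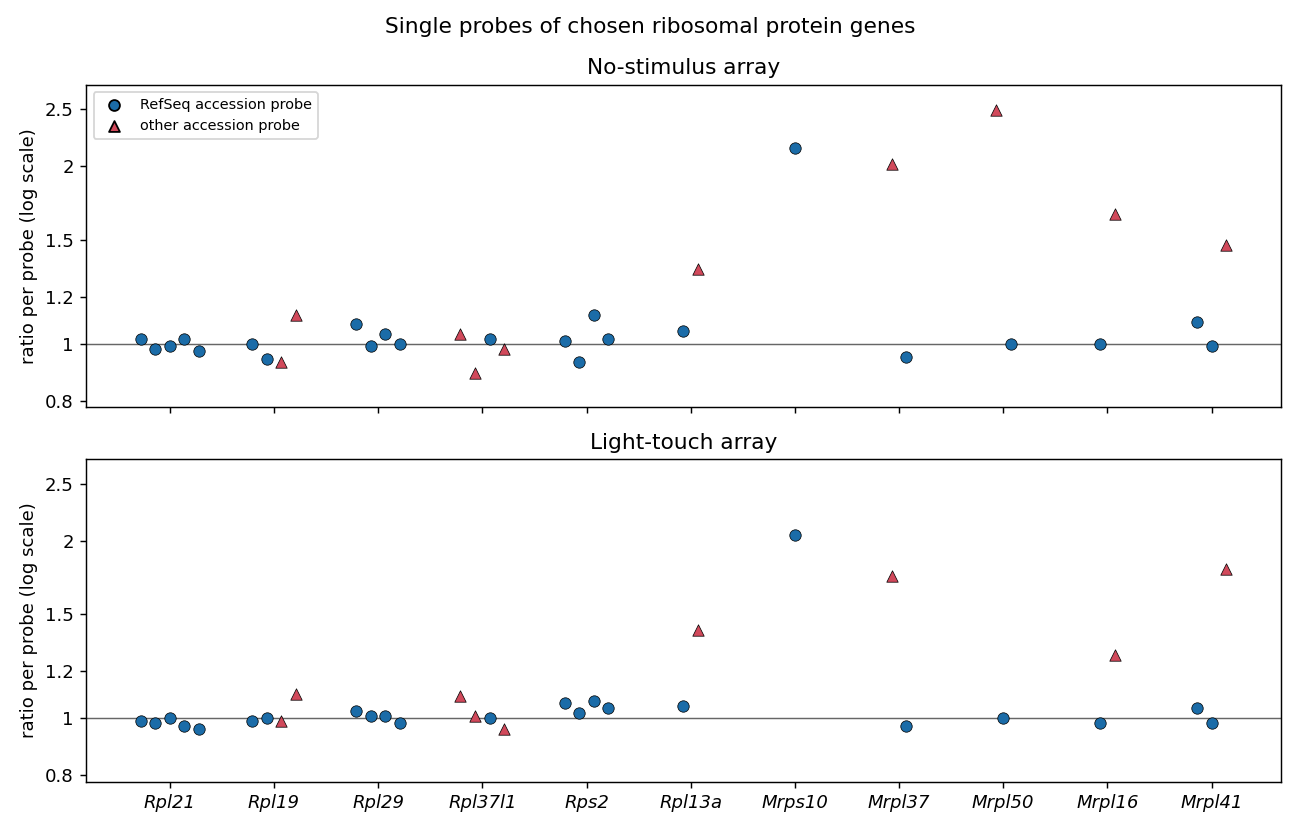
Ratio of every probe (log axis) of 11 ribosomal protein genes on the no-stimulus (top) and light-touch (bottom) array, with RefSeq accession probes as circles and other accession probes as triangles. Probes of Rpl21 stay within 0.96 to 1.02, Mrps10 has 1 probe above 2 on both arrays, and in Mrpl37, Mrpl50, Mrpl16 and Mrpl41 the high value is a triangle.

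The kind of accession from which a probe was designed went with how far ribosomal protein ratios lay from 1. Of the 242 member probes 175 carried a RefSeq mRNA accession and 67 another GenBank accession, expressed sequence tags among them. This division was made after the values were seen. Every RefSeq probe of a member had a value on both arrays, while 8 of the 67 others were empty against no stimulus (11.9%) and 10 against light touch (14.9%). Among RefSeq probes of other genes 18.3% and 19.1% were empty. RefSeq probes of cytosolic members passed 1.2-fold in 0 of 98 cases on either array. Those of mitochondrial members did in 2 of 77 (Mrps10 and Mrpl45) and 1 of 77 (Mrps10). For RefSeq probes of all other genes the shares were 11.5% against no stimulus and 13.0% against light touch. Among other accessions 1 of 30 and 3 of 30 cytosolic probes passed, and 9 of 29 and 7 of 27 mitochondrial ones. The corresponding shares were 21.5% and 23.2% for all other genes.

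Where a member had both kinds of probe, the other accession differed from the RefSeq one by 1.2-fold or more in 10 of 43 genes against no stimulus, 8 of them upward, and in 9 of 42 against light touch, all upward. Counted at any size, the other accession was higher in 19 genes and lower in 22 against no stimulus. Against light touch it was higher in 28 and lower in 14. Most of the genes that differed by 1.2-fold or more were mitochondrial. Mrpl41, named after its values were seen, is an example. Its other probe gave 1.47 and 1.79, and its 2 RefSeq probes 1.09 and 0.99 against no stimulus and 1.04 and 0.98 against light touch, so the gene value was 1.09 and 1.04. This pairing was not made for genes outside the members. Of their other accession probes 53.3% lay above 1 against no stimulus and 57.3% against light touch, beside 49.7% and 48.4% of their RefSeq probes. For members these shares were 39.0% and 70.2%, beside 39.4% and 46.3%. The spread between probes of 1 gene, pooled, was 0.08 log2 units against no stimulus and 0.09 against light touch for cytosolic members, 0.26 and 0.20 for mitochondrial ones, and 0.18 on both for all other genes. Restricted to RefSeq probes it was 0.07 and 0.05 for cytosolic members, 0.08 and 0.05 for mitochondrial ones, and 0.14 and 0.13 for other genes. With RefSeq probes alone 2 mitochondrial members were past 1.2-fold against no stimulus and 1 against light touch, and 0 cytosolic members on both. Signal brightness, which can differ between such probes, was not used here, and its part was not tested.

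**Figure D4:**
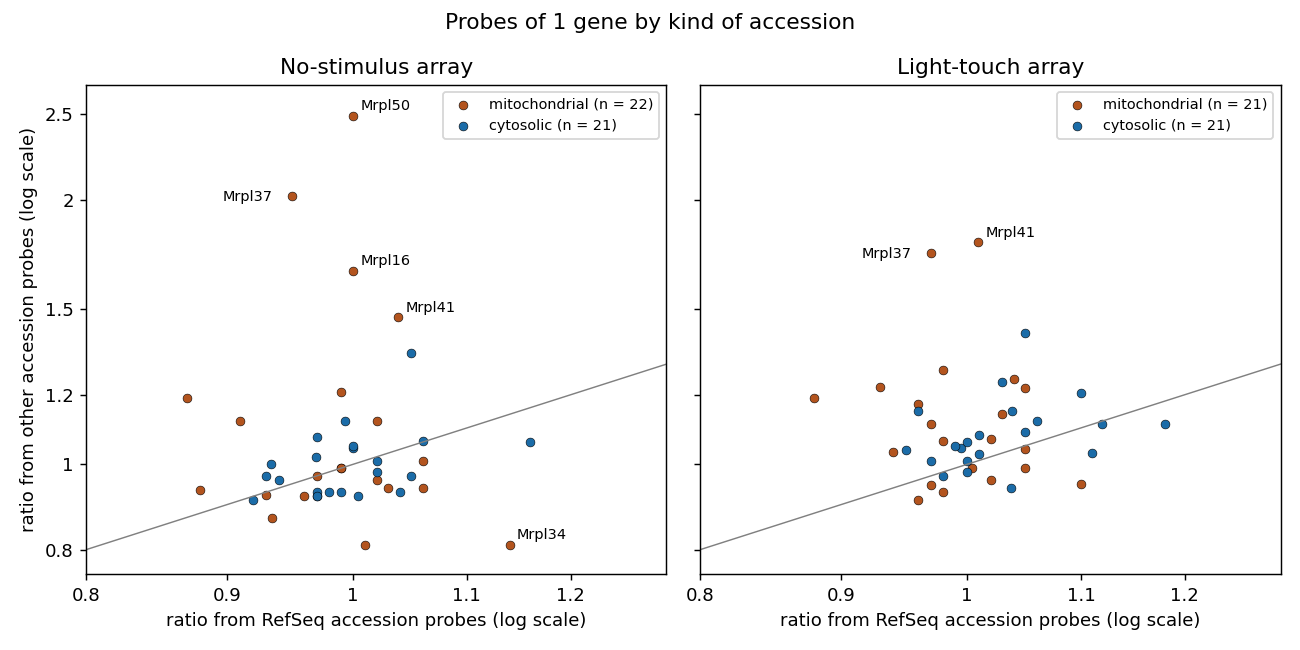
Ratio from other accession probes (vertical, log axis) against ratio from RefSeq accession probes (horizontal, log axis) for each member with both kinds, on each array, with the line of equal values. Genes whose 2 values differ by 1.4-fold or more are named, and all of these are mitochondrial.

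Genes with 1 probe vary more than genes with several, and members had 2 or more probes more often, in 51.4% of cases against 37.9% of other genes. Among genes with 1 measured probe, 0 of 31 cytosolic members passed 1.2-fold on either array. Of the mitochondrial ones 2 of 41 did against no stimulus and 1 of 43 against light touch. Other genes with 1 probe passed in 15.8% and 17.6% of cases. Among genes with 2 or more measured probes, 0 of 38 cytosolic members passed against no stimulus and 1 of 38 against light touch. Of the mitochondrial ones 3 of 29 (10.3%) and 2 of 27 (7.41%) did. Other genes with 2 or more probes passed in 6.46% and 7.19% of cases.

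Light-touched rats can be set beside rats without a stimulus only indirectly, by subtracting the light-touch array's log2 ratio from that of the no-stimulus array. This difference reads as light touch relative to no stimulus provided that both arrays carried the same tickled RNA, which the labels do not state. For cytosolic members the median difference was -0.04 log2 units, with 44 of 69 below 0, 20 above and 5 at 0. Over all genes the median was 0.00, with 5581 of 11534 below. The cytosolic members ran from -0.18 to 0.11, and 0 passed 1.2-fold, beside 13.8% of all genes. Mitochondrial members had a median of -0.01, with 36 of 70 below 0. The 2 that passed 1.2-fold were Mrpl50 at 0.66, whose 2 arrays rest on different probes, and Mrpl47 at -0.38.

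Other genes that build and serve ribosomes were read from lists of named genes. Ribosomal proteins whose names fall outside the rule lay within 1.1-fold of 1 on both arrays in all 7 measured cases, from Rack1, a signalling scaffold on the small subunit, at 0.925 and 0.945 to Chchd1 of the mitochondrial ribosome at 1.05 on both. Translation initiation factors had 0 of 40 members past 1.2-fold on either array. The eIF2B subunit Eif2b5 was lowest, at 0.91 and 0.95, and the eIF3 subunit Eif3m highest, at 1.02 and 1.17. Elongation and termination factors had 1 of 21 and 0 of 21 past it. Among the 21, Nars1, at 0.955 and 0.969, is a cytosolic asparaginyl-tRNA synthetase, which is no such factor, and is counted among the synthetases too. It is not the only such case, as the list also holds enzymes that modify these factors, among them Dph2 and Eef2k. The translocase Eef2 was lowest at 0.92 and 0.86, and Dph2, which helps make the diphthamide residue of that protein, highest at 1.17 and 1.18. All genes passed this fold in 12.3% and 13.8% of cases.

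Cytosolic ribosome biogenesis genes passed 1.2-fold in 7 of 81 cases against no stimulus, 6 of them upward, and in 8 of 80 against light touch, 7 upward. Among all genes 12.3% passed it against no stimulus, 8.38% upward and 3.91% downward. Against light touch 13.8% did, 7.61% upward and 6.14% downward. Shq1, an assembly factor of box H/ACA particles, was highest at 1.68 and 1.60, and the methyltransferase Emg1 lowest at 0.90 and 0.83. Mitochondrial translation and ribosome assembly factors had 2 of 31 and 0 of 31 past it. The GTPase Mtg2 was lowest at 0.822 and 0.838 and the initiation factor Mtif2 highest at 1.09 and 1.1. Mitochondrial aminoacyl-tRNA synthetases had 0 of 17 and 2 of 17, between Aars2 at 0.92 and 0.81 and Nars2 at 1.02 and 1.29. Cytosolic synthetases had 0 of 18 and 1 of 18, between Farsa at 0.90 and 0.85 and Qars1 at 1.11 and 1.31. The 17 also hold Gatc and Qrsl1, and the 18 Aimp1 and Aimp2, none of which is itself a synthetase. Growth signalling genes had 0 of 23 and 3 of 23, between the kinase Rps6ka3 at 0.95 and 0.81 and Rps6ka6 at 1.08 and 1.39. The medians of these lists ran from -0.06 to 0.04 log2 units over both arrays.

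**Figure D5:**
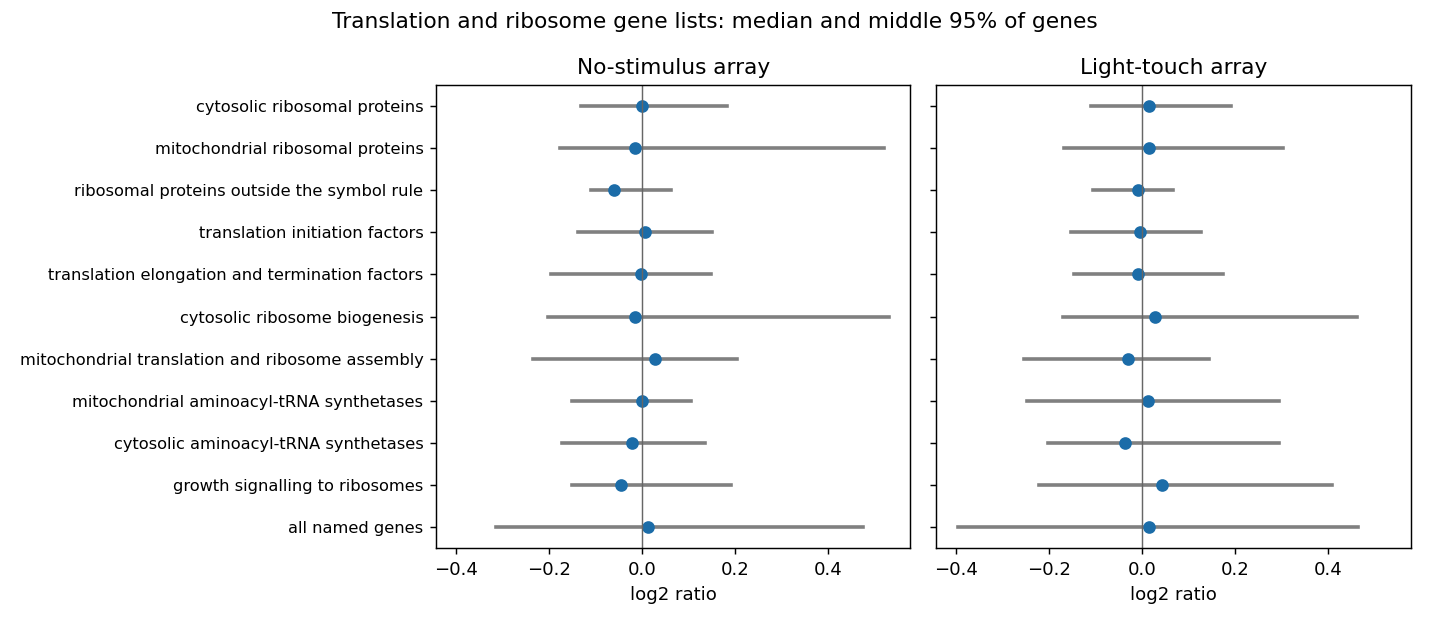
Median log2 ratio (points) and middle 95% of genes (lines) for the cytosolic and mitochondrial ribosomal proteins, 8 other translation and ribosome lists and all named genes, on each array. All medians lie between -0.06 and 0.04. The line of the cytosolic ribosomal proteins is shorter than that of all named genes, and so is the line of every other list shown.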

How the data were processed

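The values were linear ratios, 1 per probe and array to 2 decimals, deposited by the authors in a table whose 2 columns are the 2 arrays. The median ratio was 1.0 on both. Per the labels' protocols, 500 ng of total RNA was amplified to aminoallyl cRNA and coupled to Cy3 or Cy5. No source used here gives the image analysis, background correction or normalization. Probe symbols came from GEO's platform annotation. The 48 probes listing more than 1 gene, in some cases 2 records of 1 symbol, were left out of gene values. The Entrez identifiers of 139 of 140 members were found in RefSeq (GRCr8), which also gave the promoters. Probes were combined into genes by the median of their log2 ratios. Genes were counted by folds of 1.1, 1.2, 1.5 and 2, set beside the same count over all named genes. The summary step was tested on simulated data. Python 3.11.15, pandas 2.3.3 and numpy 2.4.6 were used.

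Members and lists were chosen with earlier results of these data known. Named were the 3 highest and 3 lowest members of each subunit by the mean of both log2 ratios, members past 1.5-fold on either array, those with 4 or more probes, paralogs with their parent genes, and the highest and lowest gene of each list. Mrpl41, Mrpl47, Rplp0 and Rplp1 were named after their values were seen. With 1 array per comparison, precision is limited by the number of arrays.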

Additional observations from a re-analysis of the deposited data

How the results depend on the processing

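No paired analysis was possible because each comparison has 1 array. The alternatives were the mean of probes, the middle 80% of probe numbers, a running median over probe numbers subtracted, genes with 2 or more probes, genes on both arrays, re-centring on all genes, and, chosen after seeing the data, RefSeq probes alone or the 6 probes listing several genes included. A class or list median was taken to move at 0.05 log2 units and a count at 1.5 times. Within those limits stayed 283 class and list medians and 164 counts, while 5 medians and 28 counts moved. The value of a named member was taken to move at 0.18 log2 units, the pooled spread between probes of 1 gene over all genes. By that limit 503 values stayed and 9 moved, 4 with RefSeq probes alone and 5 in the middle 80% of probe numbers. A further 2 values past 1.2-fold changed sign with RefSeq probes alone, both of Mrpl37. Many of the values that stayed could not have moved. Requiring 2 or more probes (32 named values) or a value on both arrays (70) only drops genes and leaves the others as they were. Re-centring (70 named values and 36 medians) shifts a gene by 0.01 log2 units, below both limits. All measured members had a value on both arrays, so that setting also left class medians and the 24 counts unchanged.

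Where 2 or more probes were required, counts fell with the number of genes: above 1 against no stimulus were 42.1% of 38 cytosolic members (44.9% of 69 before) and 34.5% of 29 mitochondrial ones (37.1% of 70 before), beside 50.6% of all such genes. There the members above 1 against no stimulus numbered 8 cytosolic large, 8 cytosolic small and 16 cytosolic in all, and 8 mitochondrial large, 2 mitochondrial small and 10 in all. Against light touch they numbered 14, 7 and 21, and 10, 6 and 16. In all these were 55.3% of 38 cytosolic and 59.3% of 27 mitochondrial members, beside 51.8% of all such genes. Past 1.2-fold were 0 mitochondrial small members on either array, Mrps10 having 1 probe. Of all mitochondrial members 3 of 29 (10.3%) passed it against no stimulus, beside 6.43% of all such genes. Medians were -0.078 log2 units for mitochondrial small members against no stimulus, -0.082 and -0.097 for mitochondrial translation and assembly factors, 0.074 for growth signalling against no stimulus, and 0.043 for elongation factors against light touch.

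In the middle 80% of probe numbers, which leaves out the Mrps10 probe, 0 mitochondrial small members passed 1.2-fold on either array. With the running median subtracted 1 cytosolic member, of the large subunit, passed it against no stimulus. This was Rplp2, downward, at a ratio of 0.826. After re-centring 1 mitochondrial large member did against light touch. With RefSeq probes alone the mitochondrial large counts were 1 and 0, all mitochondrial counts 2 and 1, and against light touch the cytosolic large and all cytosolic counts were 0. With the probes listing several genes both of these counts were 2. Mrpl37 with RefSeq probes alone fell below 1 on both arrays, at -0.074 and -0.044 log2 units.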
